A study of Homo sapiens with 24 samples.

Results

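*MYC* and 9 genes of the nucleolus, *NCL*, *NPM1*, *FBL*, *NOP56*, *NOP58*, *DKC1*, *POLR1A*, *POLR1B* and *UBTF*, were followed by RNA-seq in fibroblasts driven into senescence by RAS. The genes were chosen by name, for their part in making ribosomes, with earlier results of these data known. All 10 were found among the 25702 Entrez gene identifiers of the count files, and all 10 passed the filter on low counts that left 13356 genes for testing.

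The cells were IMR90, a strain of human diploid lung fibroblasts, at passage 23 to 28. Every sample, controls included, carried the retroviral construct ER:HRAS(G12V), in which oncogenic HRAS is joined to the hormone-binding part of the oestrogen receptor and stays inactive until 4-hydroxytamoxifen (4OHT) is added. The 24 samples formed 4 groups of 6 biological replicates: cells with the empty MSCV vector and no 4OHT (growing), cells with the hairpin vector MSCV miR30 shHMGA1 and no 4OHT (shHMGA1), cells with the empty vector given 4OHT for 6 days (RIS, for RAS-induced senescence), and cells with the hairpin given 4OHT for 6 days (RIS+shHMGA1). The comparisons ask how 4OHT changes these genes in cells without and with the hairpin, and how the hairpin changes them in growing and in senescent cells. The retroviral promoters act in any infected cell, and HMGA1 was targeted by a single hairpin vector, so that effects of the hairpin on other genes cannot be told apart from those of HMGA1 loss. No group tests 4OHT in cells without the ER:HRAS(G12V) construct.

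MYC is a transcription factor that pairs with MAX and binds E-boxes, and it is best known for raising the output of genes for cell growth, those for making ribosomes among them. Ribosomes are assembled in the nucleolus. RNA polymerase I (POLR1A and POLR1B are its catalytic core subunits) transcribes ribosomal DNA that is kept open by the HMG-box protein UBTF. Small nucleolar ribonucleoproteins (snoRNPs) then modify the transcript: FBL, NOP56 and NOP58 belong to the box C/D particles that guide 2'-O-methylation, and DKC1 is the pseudouridine synthase of the H/ACA particles. NCL and NPM1 are abundant nucleolar proteins that handle ribosomal RNA and carry ribosomal proteins. Cells in RAS-induced senescence stop dividing for good but stay alive and metabolically active.

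In the human genome build GRCh37, the 9 nucleolar genes lie apart from each other on several chromosomes, according to the GENCODE annotation lifted to that build. *NCL* (chromosome 2, 232318242 to 232348352, minus strand), *NOP58* (chromosome 2, 203130459 to 203168384, plus strand), *POLR1A* (chromosome 2, 86247339 to 86333278, minus strand) and *POLR1B* (chromosome 2, 113299492 to 113337395, plus strand) share a chromosome. *NPM1* is on chromosome 5 from 170814120 to 170838814 (plus strand), *UBTF* on chromosome 17 from 42282401 to 42298994 (minus strand) and *FBL* on chromosome 19 from 40325098 to 40337019 (minus strand). *NOP56* is on chromosome 20 from 2633239 to 2639039 and *DKC1* on chromosome X from 153991017 to 154005964, both on the plus strand.

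The letters CACGTG, the canonical E-box, were searched for in the promoters of the genes, since this is the sequence that MYC and MAX bind best. It reads the same on both strands. The windows, from 250 bases before to 50 after a start site, were RefSeq sequences of the build GRCh38.p14, and 8 of the 10 genes had an entry (*MYC* and *NOP58* did not). Among these, 1 of 8 held CACGTG, beside 12.6% of the 10412 tested genes with an entry and 8.77% of all 27305 genes in that table. The gene was *FBL*, with the motif beginning 6 bases after the start. The share was higher in some of the gene lists described below: 18 of 41 genes of the small subunit processome (43.9%), 14 of 42 of large subunit assembly (33.3%) and 11 of 19 MYC targets outside the nucleolus (57.9%), and also 4 of 17 genes of the cell cycle list (23.5%). Nucleolar chaperones and abundant nucleolar proteins had 6 of 16 (37.5%), the MYC network 3 of 9 (33.3%) and the snoRNP list 3 of 12 (25.0%). RNA polymerase I and its factors had 1 of 18 (5.56%) and the RNA exosome 1 of 12 (8.33%). Stretches of up to 30 bases around the motif are shown for *FBL* and for a selection of list genes that are described with their expression below, to set the sequence beside genes that rose (*PNO1*, *TEX10*, *NOP10*, *ODC1* and *MLX*), that fell (*DDX54* and *PLK1*, a kinase of dividing cells from the cell cycle list) or that did not change (*FBL*). They are written 5′ to 3′ on the gene's strand, with CACGTG in capitals and positions in GRCh37, where each window was found once.
FBL, chr19:40336996-40337025, minus strand: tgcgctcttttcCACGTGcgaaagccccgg
PNO1, chr2:68385017-68385046, plus strand: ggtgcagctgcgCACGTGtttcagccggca
TEX10, chr9:103115237-103115266, minus strand: gcgggctgcgatCACGTGagcacagcaggg
NOP10, chr15:34635331-34635360, minus strand: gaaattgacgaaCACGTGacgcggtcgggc
ODC1, chr2:10588150-10588179, minus strand: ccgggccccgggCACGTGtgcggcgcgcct
ODC1, chr2:10588116-10588145, minus strand: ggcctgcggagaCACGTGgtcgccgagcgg
MLX, chr17:40719056-40719085, plus strand: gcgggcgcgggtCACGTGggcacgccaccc
DDX54, chr12:113623327-113623356, minus strand: ctcagcggaggtCACGTGgtcaccgcacct
PLK1, chr16:23690000-23690029, plus strand: cccaggctatccCACGTGttcgggcgtccg
A match of letters is a description of the window, and no match says only that CACGTG is not among these 300 bases.

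Samples held 8698070 to 23103424 counts each, and the median sample 10604083. The lowest count of any of the 10 genes in any sample was 133, for *POLR1B*. Levels are given as CPM, counts scaled to a common library size after TMM normalisation, which is a measure for comparing samples and not genes. The library labelled growing replicate 4 and the library labelled RIS replicate 2 stood apart from their groups in genes other than the 10. The summed level of 20 cell cycle genes was 409 CPM in growing replicate 4, with 1612 to 2124 CPM in the other growing samples, and 1549 CPM in RIS replicate 2, with 354 to 456 CPM in the other RIS samples. It was 1649 to 2371 CPM in shHMGA1 and 439 to 498 CPM in RIS+shHMGA1. In this sum each of these libraries lay near the labelled group of the other. Whether their labels were exchanged was not tested, and the meaning of every value that sets RIS against growing with all samples kept depends on it. Both libraries were kept in their labelled groups, and the comparisons that rest on them are given with and without them. *HMGA1* itself lay between 54.4 and 262 CPM in the 12 samples with the hairpin and between 639 and 861 CPM in the others. All 10 fibroblast markers had counts in all 24 samples, with summed levels of 5321 to 40370 CPM in growing, 14330 to 20310 in shHMGA1, 5864 to 26950 in RIS and 4691 to 6072 in RIS+shHMGA1, so this sum moved with 4OHT and with the departing libraries. Among markers of epithelial, endothelial and immune cells, *KRT14*, *CD3E*, *KRT5* and *CDH1* were at 0 in 19 to 23 of 24 samples, while *TEK* (13.1 to 123 CPM) and *CD68* (40.2 to 106 CPM) were measured in every sample. *TEK*, an endothelial receptor, fell by 2.42 on the log2 scale (SE 0.43, edgeR adjusted p = 0.000273) in RIS+shHMGA1 against shHMGA1, from 69.9 to 123 CPM to 13.6 to 21.8 CPM, and its part in the results of that comparison was not tested. In bulk RNA, fewer cells with a gene on and less RNA of it per cell cannot be told apart.

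*MYC* was at its lowest in shHMGA1 samples and at its highest in RIS samples. In growing samples it lay between 19.9 and 58.8 CPM with a median of 26.3, and its highest value was that of replicate 4, with 34.7 CPM the highest among the others. In shHMGA1 samples it lay between 16.5 and 26.0 CPM with a median of 20.4. In RIS samples it lay between 18.5 and 65.0 CPM with a median of 63.6, where the lowest value was that of replicate 2 and the other 5 lay within 58.6 to 65.0 CPM. In RIS+shHMGA1 samples it lay between 44.8 and 58.9 CPM with a median of 48.5. The shHMGA1 and RIS+shHMGA1 samples did not overlap, whereas growing and RIS samples overlapped through the 2 departing libraries. By mean ± SD of 6 samples the order was shHMGA1 (21.2 ± 3.95 CPM), growing (31.1 ± 14.9), RIS+shHMGA1 (49.6 ± 4.94) and RIS (55.6 ± 18.3). With all samples kept, no neighbouring pair in that order passed the thresholds of the tests below.

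**Figure D1:**
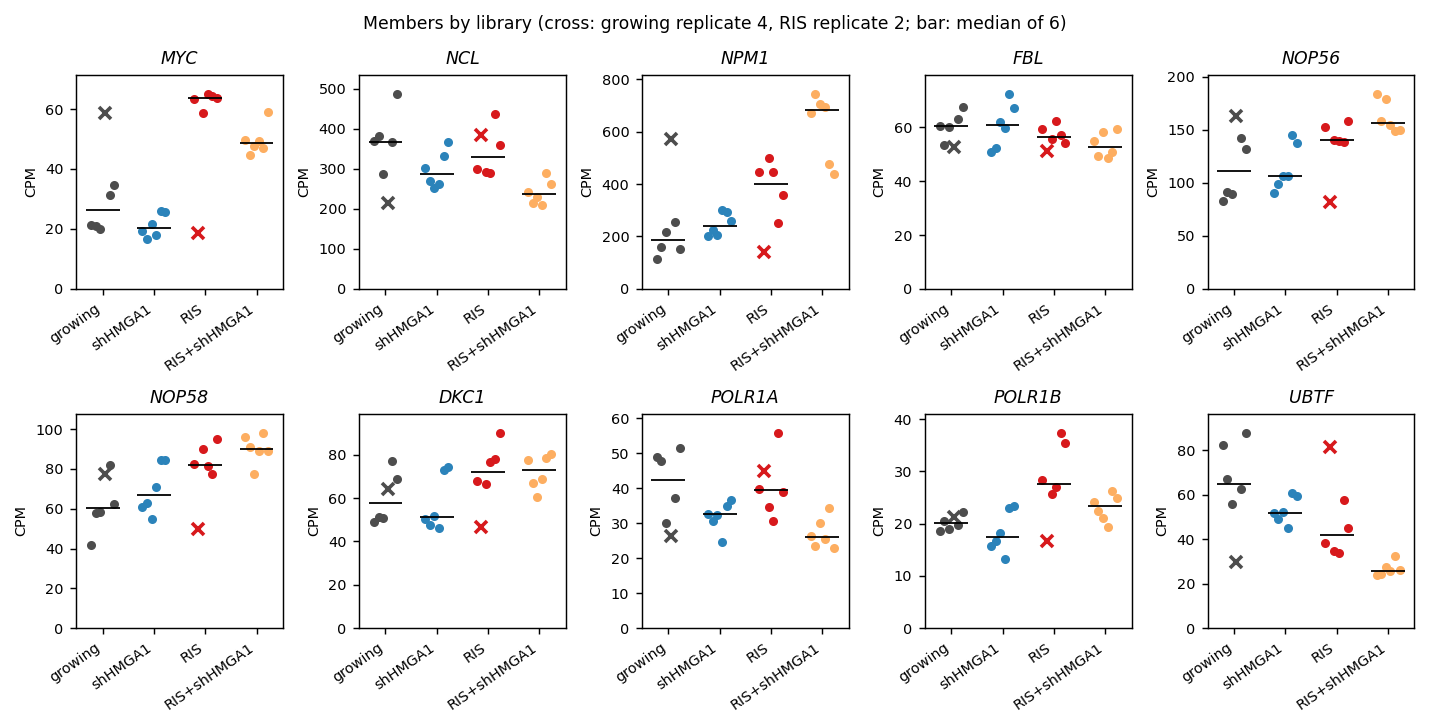
CPM of each of the 10 genes in every sample (y axis, from 0) by group (x axis), with a dot for each sample, a cross for growing replicate 4 and RIS replicate 2, and a bar for the median of 6. For MYC, NPM1 and UBTF the cross in the growing column sits with the 4OHT groups and the cross in the RIS column with the growing cells.

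With 4OHT in hairpin cells, *MYC* and *NPM1* rose and *UBTF* fell. The groups of this comparison, RIS+shHMGA1 against shHMGA1, hold neither departing library. Its SE and p-values come from the fit of all 24 samples, whose shared spread includes both. In the fit without the pair the SE was 0.13 for *MYC*, 0.19 for *NPM1* and 0.13 for *UBTF*. All 3 again passed the thresholds given below. *MYC* rose by 1.23 on the log2 scale (SE 0.26, edgeR quasi-likelihood test, Benjamini-Hochberg adjusted p = 0.000719), which is 2.34-fold. *NPM1* lay between 201 and 301 CPM with a median of 242 in shHMGA1 samples, and between 440 and 744 CPM with a median of 682 in RIS+shHMGA1 samples. It was therefore higher in every 4OHT sample, by 1.33 on the log2 scale (SE 0.32, edgeR adjusted p = 0.00171). Within RIS+shHMGA1, the samples of replicate numbers 5 and 6 (477 and 440 CPM) lay below the other 4 (672 to 744 CPM). *UBTF* lay between 45.0 and 60.6 CPM with a median of 52.0 in shHMGA1 samples and between 23.9 and 32.3 CPM with a median of 25.8 in RIS+shHMGA1 samples. It was lower in every 4OHT sample, and fell by 1.00 on the log2 scale (SE 0.21, edgeR adjusted p = 0.000769), a 2.00-fold change. A gene counted as changed when its adjusted p (false discovery rate, FDR) was under 0.01 and its log2 fold change beyond 0.58 in either direction. By that rule 3 of the 10 genes changed, while 39.1% of all 13356 tested genes did, so the share among the 10 was not above the background. In *MYC*, *NPM1* and *NOP56* (above) and *UBTF* (below) the samples of the 2 groups did not overlap, which held for 43.4% of all tested genes.

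Of the 3 box C/D genes, *NOP56* and *NOP58* had positive log2 fold changes in hairpin cells and *FBL* a negative one. None of these passed the thresholds in the edgeR fit on all samples, and differences between the genes were not tested. *NOP56*, a core scaffold of the particle, lay between 90.1 and 145 CPM with a median of 107 in shHMGA1 samples and between 149 and 184 CPM with a median of 156 in RIS+shHMGA1 samples, so all 4OHT samples were above all others. Its log2 fold change of 0.50 (SE 0.17, edgeR adjusted p = 0.0152) missed both thresholds in the fit on all samples. Without the departing pair it passed the FDR (edgeR adjusted p = 0.00177) and missed only the fold limit. With sample quality weights, limma voom called it, at 0.63 (adjusted p = 5e-06). *NOP58*, its partner in the particle, lay between 55.0 and 84.7 CPM without and between 77.3 and 97.9 CPM with 4OHT, which overlapped, at a log2 fold change of 0.37 (SE 0.16, edgeR adjusted p = 0.0444). *FBL*, the methyltransferase, had 50.7 to 72.5 CPM without and 48.7 to 59.3 CPM with 4OHT, and its log2 fold change was -0.18 (95% CI -0.38 to 0.01). Its means over all 4 groups lay within 53.5 to 60.7 CPM, the narrowest relative range of group means among the 10 genes. *DKC1* of the H/ACA particle had a log2 fold change of 0.33 (SE 0.16, edgeR adjusted p = 0.064), with 46.3 to 74.2 CPM without and 60.5 to 80.6 CPM with 4OHT.

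The subunits of RNA polymerase I lay on either side of 0. *POLR1B*, the second largest subunit, had 13.3 to 23.4 CPM in shHMGA1 and 19.5 to 26.3 CPM in RIS+shHMGA1 samples, with a log2 fold change of 0.33 (SE 0.16, edgeR adjusted p = 0.073). *POLR1A*, the largest subunit, had 24.5 to 36.6 CPM and 23.0 to 34.2 CPM, with a log2 fold change of -0.24 (95% CI -0.58 to 0.11). *NCL*, which binds nascent ribosomal RNA, had 253 to 367 CPM and 210 to 289 CPM, with a log2 fold change of -0.30 (SE 0.16, edgeR adjusted p = 0.0996). In these 3 genes, as in *DKC1*, the samples with and without 4OHT overlapped.

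In cells without the hairpin, none of the 10 genes passed the FDR in the edgeR test when all samples were kept, although *MYC* lay beyond the fold limit. RIS against growing had 0 of 10 changed genes, and 0% of the 13356 tested genes were changed by the edgeR test, although 4407 had an unadjusted p under 0.05, and DESeq2 called 829 genes but none of the 10. With sample quality weights, limma voom called 6317 genes, among them *MYC*, *NPM1* and *UBTF*. The largest log2 fold changes were those of *MYC* (0.84, SE 0.26, edgeR adjusted p = 0.0342), *NPM1* (0.55, SE 0.32, adjusted p = 0.232), *POLR1B* (0.49, SE 0.16, adjusted p = 0.0393) and *UBTF* (-0.41, SE 0.21, adjusted p = 0.181). In all 10 genes the groups overlapped, as in all but 0.367% of the tested genes.

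Without growing replicate 4 and RIS replicate 2, 4 of the 10 genes changed between RIS and growing cells, as did 39.7% of 13416 tested genes. *MYC* rose by 1.30 on the log2 scale (SE 0.15, edgeR adjusted p = 4.91e-08). *NPM1* rose by 1.16 (SE 0.21, adjusted p = 4.05e-05), from 112 to 257 CPM in 5 growing samples to 253 to 499 CPM in 5 RIS samples, an overlap of a single sample on either side. *POLR1B* rose by 0.62 (SE 0.14, adjusted p = 0.000512), from 18.6 to 22.2 CPM in growing to 25.8 to 37.3 CPM in RIS samples. *UBTF* fell by 0.76 (SE 0.14, adjusted p = 6.56e-05), from 55.8 to 87.6 CPM in growing to 33.9 to 57.5 CPM in RIS samples. The groups did not overlap in *MYC* and *POLR1B*, beside 35.2% of all tested genes. *NOP58* (log2 fold change 0.50, adjusted p = 0.00344) passed the FDR and not the fold limit, and *NOP56* (0.44, adjusted p = 0.011) neither. *DKC1* (0.35), *FBL* (-0.08), *POLR1A* (-0.11) and *NCL* (-0.17) were nearer to 0.

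**Figure D2:**
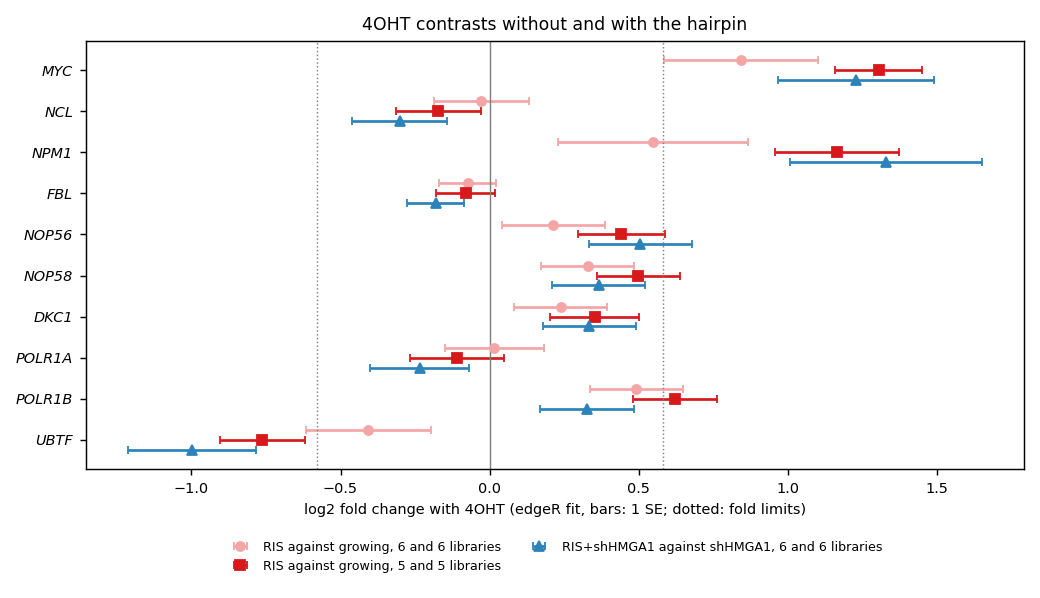
Log2 fold change with 4OHT (x axis, bars 1 SE) for each of the 10 genes, for RIS against growing with all samples and without the departing pair, and for RIS+shHMGA1 against shHMGA1. MYC, NPM1 and UBTF lie beyond the dotted fold limits of 0.58 in hairpin cells and, once the pair is left out, in cells without the hairpin.

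Whether the hairpin altered the response to 4OHT was tested by the interaction term, which had 0 of 10 changed genes beside 0% of all tested genes (edgeR, 1371 genes at an unadjusted p under 0.05, none of the 10 among them, and DESeq2 called 3 genes, also none of the 10). For *NPM1* the difference between the 2 responses was 0.78 on the log2 scale (95% CI -0.15 to 1.71), for *MYC* 0.38 (95% CI -0.37 to 1.14) and for *UBTF* -0.59 (95% CI -1.21 to 0.03). Without the departing pair these became 0.16 (95% CI -0.41 to 0.74), -0.08 (95% CI -0.48 to 0.33) and -0.23 (95% CI -0.63 to 0.16). Differences as large as these bounds were not resolved.

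Between hairpin cells without 4OHT and growing cells, no difference in the 10 genes passed the thresholds, and differences of moderate size were not resolved. In shHMGA1 against growing, 0 of 10 genes changed, beside 0.27% of all tested genes (edgeR, 36 of 13356, with 1 of the 10 genes at an unadjusted p under 0.05, and DESeq2 called 98 genes but none of the 10). That gene was *MYC*, with a log2 fold change of -0.55 (95% CI -1.08 to -0.01, edgeR adjusted p = 0.364), and of -0.27 (95% CI -0.56 to 0.02) without the departing pair, where 2.59% of genes and none of the 10 changed. Without the pair *NPM1* was at 0.47 (95% CI 0.06 to 0.88), *POLR1A* at -0.43 (95% CI -0.74 to -0.12) and *UBTF* at -0.42 (95% CI -0.70 to -0.15). With all samples the groups overlapped in all 10 genes, as in all but 1.3% of the tested genes. The hairpin in 4OHT-treated cells, RIS+shHMGA1 against RIS, gave 0 of 10 changed genes beside 2.55% of all tested genes (edgeR, with 4 of the 10 at an unadjusted p under 0.05, and DESeq2 called 1 of the 10, *UBTF*). *UBTF* lay between 33.9 and 81.3 CPM with a median of 41.7 in RIS samples, all above the 23.9 to 32.3 CPM of RIS+shHMGA1 samples, and groups were apart in this way in 13.2% of all genes. Its log2 fold change was -0.87 (SE 0.21, edgeR adjusted p = 0.0112). Without the departing pair it fell by 0.66 (SE 0.14, adjusted p = 0.00195), the only gene of the 10 to change, beside 12.5% of all genes. With voom and all samples *UBTF* was at -0.56, short of the fold limit, and *NPM1*, at 0.60, was called instead. *POLR1A* (-0.59, adjusted p = 0.0171), *NCL* (-0.51, adjusted p = 0.023) and *NPM1* (0.80, adjusted p = 0.0526) did not pass.

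Both treatments together, RIS+shHMGA1 against growing, changed *NPM1* and *UBTF* among the 10 genes, beside 45.9% of all tested genes. *NPM1* rose by 1.35 on the log2 scale (SE 0.32, edgeR adjusted p = 0.00129) and *UBTF* fell by 1.27 (SE 0.22, adjusted p = 0.000167). *NOP58* (0.51, adjusted p = 0.00662), *NCL* (-0.54, adjusted p = 0.00526) and *POLR1A* (-0.57, adjusted p = 0.00469) passed the FDR but not the fold limit, and *MYC* had 0.68 (adjusted p = 0.0238). No gene of the 10 had groups apart, as in all but 6.42% of genes. Without growing replicate 4, and with RIS replicate 2 also left out of the shared fit, 6 of the 10 changed beside 56.9% of all genes. *MYC* rose by 0.96, *NPM1* by 1.80 and *NOP56* by 0.60, while *NCL* fell by 0.65, *POLR1A* by 0.67 and *UBTF* by 1.42. Groups were then apart in 4 of the 10 genes, *MYC*, *NPM1*, *NOP56* and *UBTF*, beside 54.6% of all genes. The comparisons share samples: growing samples, for example, enter 3 of those between groups, so their values are not independent of each other.

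The profiles of the 10 genes over the 24 samples were compared in pairs. Likeness was measured as the root mean square difference of log2 CPM after each gene was centred on its mean, so that a smaller value is closer. Profiles were not scaled, so genes that vary little come out close to each other. Distances between members other than *MYC* were not set beside those of other genes. The closest pairs were *NCL* and *POLR1A* (0.155), *NOP56* and *NOP58* (0.167), *NOP58* and *DKC1* (0.186) and *DKC1* and *POLR1B* (0.192), and the farthest was *NPM1* and *UBTF* (1.35). *MYC* was closest to *NOP56* (0.458) among the members and farthest from *UBTF* (1.16), where the median over 10935 tested genes of mean log2 CPM of at least 2 was 0.778. By that order *NOP56* was only the 538th gene from *MYC* and *NPM1* the 1641st. The 5 closest genes to *MYC* were *CDK17* (0.209), a cyclin-dependent kinase, *TRIB1* (0.217), a pseudokinase, *PPIF* (0.217), cyclophilin D of mitochondria, *PANX1* (0.219), a membrane channel, and *MLKL* (0.227), the effector of necroptosis. The profiles share all samples, the departing libraries included. Over the 22 samples without these, the closest pairs were again *NCL* and *POLR1A* (0.159) and *NOP56* and *NOP58* (0.163), and the farthest *NPM1* and *UBTF* (1.30). *POLR1B* (0.456, the 518th gene) then came before *NOP56* (0.468, the 585th) as the member closest to *MYC*, while *NPM1* was the 1917th and the median over all genes compared was 0.769. Of the 5 genes closest to *MYC*, 3 stayed among the 5, *PANX1* (0.208), *CDK17* (0.215) and *TRIB1* (0.223), while *PPIF* (0.226) became the 6th and *MLKL* (0.235) the 11th.

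Beyond the 10 genes, each list of the machinery that makes ribosomes held more genes that rose than fell with 4OHT in hairpin cells, where 19.6% of all tested genes were higher and 19.5% lower. Each of these lists includes those of the 10 genes that belong to it. Of 47 tested genes of the small subunit processome, the particle that matures the 40S precursor, 16 rose and 0 fell, with a median log2 fold change of 0.40 beside -0.02 over all tested genes. *PNO1* rose by 1.76 (64.1 to 96.5 CPM in shHMGA1 and 165 to 309 CPM in RIS+shHMGA1 samples), *EMG1*, a methyltransferase, by 1.53, and *IMP3*, a U3 snoRNP protein, by 1.41. Of 50 genes of large subunit assembly, 14 rose and 1 fell (median 0.27). *RPF2*, which brings in the 5S particle, rose by 1.70, *TEX10* by 1.34 and *WDR12* by 1.22, while *DDX54*, an RNA helicase, fell by 0.59. In the snoRNP list 5 of 18 rose and 1 fell (median 0.27). *NOP10* and *NHP2*, which sit beside DKC1 in the H/ACA particle, rose by 1.79 and 1.01, and *ZNHIT3*, an assembly factor of box C/D particles, by 1.09, while *TCOF1*, a scaffold that works with UBTF at ribosomal DNA, fell by 0.86.

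In the list of RNA polymerase I and its factors, 4 of 20 genes rose, a share of 20% that was near the 19.6% of all tested genes, and 1, *UBTF*, fell (median 0.37). The 3 with the largest rise were subunits that RNA polymerase I shares with other polymerases: *POLR1C* rose by 1.60 (19.2 to 29.7 CPM in shHMGA1 and 67.5 to 89.8 CPM in RIS+shHMGA1 samples), *POLR2F* by 1.57 and *POLR2H* by 1.42. Among nucleolar chaperones and abundant nucleolar proteins 4 of 17 rose and 3 fell (median 0.17). These shares of 23.5% and 17.65% were near the 19.6% and 19.5% of all tested genes. *NIFK*, a partner of MKI67, rose by 1.63 and *NPM3* by 1.11, beside *NPM1*, and those that fell were *MKI67* (by 4.33), a protein of dividing cells, *NUCKS1* (by 1.22) and *NOP9* (by 0.64). In the RNA exosome, which trims precursors, 5 of 14 rose and 2 fell (median 0.44), with *MPHOSPH6* up by 1.99, *C1D* by 1.53 and *EXOSC4* by 1.30, and *EXOSC9* and *EXOSC6* down by 0.84 and 0.79.

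In the MYC network, the partners and antagonists of MYC, 4 of 10 rose and 0 fell (median 0.41). *MYC* itself led, followed by *MLX*, a dimer partner in the extended network, which rose by 1.19, and *MXI1*, which competes with MYC for MAX, by 1.08. Of 21 tested MYC targets outside the nucleolus, 9 rose and 3 fell (median 0.58). *ODC1*, the first enzyme of polyamine synthesis, rose by 2.25 (180 to 219 CPM in shHMGA1 and 785 to 1029 CPM in RIS+shHMGA1 samples), *HSPE1*, a mitochondrial chaperonin, by 1.30 and *NME1*, a nucleoside diphosphate kinase, by 1.19. *SHMT1* of one-carbon metabolism fell by 1.69, *CDC25A*, a phosphatase of the cell cycle, by 1.67, and *CAD*, the enzyme that starts pyrimidine synthesis, by 0.74. All genes named in these lists passed the edgeR thresholds, with adjusted p-values of at most 0.00483 for those that rose and 0.00638 for those that fell. In the cell cycle list, 20 of 20 genes fell (median -2.46).

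In RIS against growing with all samples no gene of any list changed by the edgeR test, which called no gene at all. With voom 6317 of 13356 tested genes were called, *MYC*, *NPM1* and *UBTF* among the 10 genes. The voom calls within each list were not counted. Without the departing pair, where 19.2% of all tested genes were higher and 20.5% lower, 20 of 47 genes of the small subunit processome rose and 0 fell, 17 of 50 of large subunit assembly rose and 1 fell, and 5 of 18 snoRNP genes rose and 1 fell. RNA polymerase I and its factors had 5 higher and 1 lower of 20, the exosome 7 and 2 of 14, the MYC network 5 and 0 of 10, MYC targets outside the nucleolus 9 and 3 of 21, and nucleolar chaperones 4 and 2 of 17.

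Transcript length moved with these results. In RIS+shHMGA1 against shHMGA1, the median log2 fold change was 0.80 over 833 tested genes with a canonical transcript under 1000 bases, 0.31 over 2320 genes of 1000 to under 2000 bases, -0.03 over 4516 genes of 2000 to under 4000 bases and -0.28 over 4967 genes of 4000 bases and more. In these classes 49.9, 28.8, 18.2 and 11.3% of genes were higher and 7.08, 9.83, 19.3 and 27.4% lower. The difference in median centred log2 CPM between the shortest and the longest class was 0.29 to 1.25 in RIS+shHMGA1 and -0.49 to 0.10 in shHMGA1 samples, and 0.94 in growing replicate 4 with -1.31 to -0.27 in the other growing samples and -1.01 in RIS replicate 2 with -0.62 to 0.42 in the other RIS samples. *NPM1* (1320 bases) and *UBTF* (4795 bases) moved in the direction of their classes and beyond the class medians. *MYC* (3721 bases) rose in a class whose median was near 0, and *FBL* (1125 bases) was below 0 in a class whose median was above it. In the small subunit processome, 5 of 10 genes under 2000 bases rose (median 0.60) and 11 of 37 longer genes (median 0.27), beside 1084 of 3153 (median 0.43) and 1385 of 9483 (median -0.17) over all tested genes. In large subunit assembly these were 4 of 10 (median 0.42) and 10 of 39 (median 0.27), in the snoRNP list 5 of 12 (0.43) and 0 of 6 (0.13), and in RNA polymerase I and its factors 3 of 9 (0.81) and 1 of 11 (0.13). Among nucleolar chaperones and abundant nucleolar proteins 4 of 6 genes under 2000 bases rose (0.99), while 0 of 11 longer genes rose and 3 fell (-0.085). Of MYC targets outside the nucleolus 6 of 7 shorter genes rose (0.75), and of 14 longer ones 3 rose and 3 fell (0.15). In the exosome 4 of 8 shorter genes rose (0.65) and 1 of 6 longer ones (0.17). In each of these lists, as over all tested genes, a larger share of the shorter than of the longer genes rose, while in the MYC network 0 of 1 shorter and 4 of 8 longer genes did. The part of length in the differences of single genes was not tested.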

How the data were processed

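RNA came from 24 cultures of IMR90 cells with ER:HRAS(G12V), 6 to a group, and poly(A) libraries were made with a stranded kit. The authors mapped reads to hg19 with STAR 2.5.0b, removed reads of mapping quality under 20 and adapters with cutadapt 1.10.0, counted reads on genes with Rsubread and deposited raw counts per Entrez identifier. The gene annotation and strand setting are not given in the sources used here, so reads of overlapping genes may be split by an unknown rule. NPM1 has near-identical processed pseudogenes, and its counts are uncertain to that extent. Ribosomal RNA and snoRNA genes are not compared: 1 of 13 snoRNA genes in introns of these genes passed the filter and none of 4 ribosomal RNA genes was matched.

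Groups and replicate numbers came from the sample titles. Symbols were found for 23696 of 25702 identifiers. Counts were tested with edgeR 4.0.16 (R 4.3.3, limma 3.58.1): filterByExpr, TMM, a quasi-likelihood fit of group means on all 24 samples, and calls at an FDR under 0.01 with an absolute log2 fold change over 0.58, the limits of the study's methods. The SE was the log2 fold change divided by the square root of F. CPM used TMM library sizes, and log2 CPM a prior count of 2. The total counts of 8698070 to 23103424 leave every one of the 10 genes at 133 counts or more in each sample. No pair of samples within a group was as close as sampling noise would allow. The fit was tested on simulated counts. Named genes were the 10, and for each list up to 3 per direction with the largest change called in RIS+shHMGA1 against shHMGA1, and the 5 genes nearest to MYC. The 10 genes and the lists were chosen with earlier results of these data known. The E-box search and the length classes were added after these comparisons had been seen. GENCODE canonical transcripts gave a length for 94.6% of the tested genes. Alternatives were DESeq2 1.42.0, RLE and upper quartile normalisation, no filter, the replicate number as a block, only the groups compared, voom with sample quality weights, an FDR of 0.05, fits without the departing pair, on replicate numbers 1 to 4, and without each replicate number. Likeness without the departing pair was added after seeing the data.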

Additional observations from a re-analysis of the deposited data

Results flagged for a closer look

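In RIS samples, replicate 2 lay far from the other 5 in 3 of the 10 genes by Dixon's test on log2 CPM at its 95% limit. The gap to the nearest sample, as a share of the whole range, was 0.918 for *MYC* (18.5 CPM, with 58.6 to 65.0 CPM in the others), 0.798 for *NOP56* (82.3 CPM, with 138 to 158 CPM in the others) and 0.683 for *NOP58* (49.8 CPM, with 77.3 to 94.9 CPM in the others). The test was run on 40 sets, the 10 genes in each of 4 groups, and chance flags about 1 set in 20. These 3 flags come from 1 library, in which the summed level of the cell cycle list was 1549 CPM, with 354 to 456 CPM in the other RIS samples.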

How the results depend on the processing

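With 3 changed genes in RIS+shHMGA1 against shHMGA1 (*MYC*, *NPM1* and *UBTF*), the count was within 1.5 times under DESeq2, both other normalisations, no filter, the replicate block (3), the contrast's own groups (3), voom (4), an FDR of 0.05 and without the departing pair (3), and 2 to 3 when a replicate number was left out, the lower without replicate 3, where *NPM1* (1.24) missed the FDR. Over all tested genes the shares called were 41.4% with DESeq2, 49.2% with voom, 44.4% without the departing pair and 22.7% without replicate 3. The count was 0 on replicate numbers 1 to 4 alone, a fit with fewer samples that still holds both departing libraries and calls 0 of 13375 genes, at log2 fold changes of 1.32 (*MYC*), 1.57 (*NPM1*) and -0.99 (*UBTF*) that were about as large as with all samples. In RIS against growing the count of 0 became 3 with voom weights, 1 at an FDR of 0.05, 4 without the departing pair, and 0 to 2 when a replicate number was left out (2 without replicate 2, *MYC* and *POLR1B*, and 1 without replicate 4, *MYC*). Over all tested genes the shares were 47.3% with voom, 11.5% at an FDR of 0.05 and 39.7% without the departing pair. They were 13.7% without replicate 2 and 15.6% without replicate 4. In RIS+shHMGA1 against growing the count of 2 became 4 with upper quartile normalisation, 7 with voom, 6 without the departing pair, 0 on replicate numbers 1 to 4 and 1 to 7 when a replicate number was left out (1 without replicate 1, 4 without replicate 5 and 7 without replicate 4). Over all tested genes the shares were 46.9% with upper quartile, 60% with voom, 56.9% without the departing pair and 0.0374% on numbers 1 to 4. They were 22.9% without replicate 1, 41.9% without replicate 5 and 54.1% without replicate 4. In RIS+shHMGA1 against RIS the count of 0 became 1 with DESeq2 or without the departing pair (*UBTF* in both) and 1 with voom (*NPM1*, not *UBTF*), 2 at an FDR of 0.05, and 0 to 2 when a replicate number was left out (2 without replicate 4). In shHMGA1 against growing and in the interaction it was 0 under every alternative run. The cause of these shifts was not tested.

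With the replicate number as a block, 3 genes changed in RIS+shHMGA1 against shHMGA1 (beside 42.4% of all tested genes). There were 3 in RIS+shHMGA1 against growing (*MYC* added, 48.3%), 1 in RIS+shHMGA1 against RIS (*UBTF*, 12.3%) and 0 elsewhere. Same-numbered samples of different groups had a mean correlation of deviations of 0.175, from -0.594 to 0.828, over 0.1 in 24 of 36 pairs, and differently numbered ones a mean of -0.050, over 0.1 in 57 of 180. Of 24 samples, 8 correlated best with their own number. Not every same-numbered pair was over 0.1, so the numbers were not taken as a pairing, though some likeness is there. Numbers 5 and 6 were highest for *DKC1* in all 4 groups, but in 0 to 3 for other genes. Each RIS+shHMGA1 sample was above its number in shHMGA1 for *NOP58*, *DKC1* and *POLR1B* and below it for *NCL*, which group differences can give.

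Of the log2 fold changes of single genes, 865 kept direction and side of the thresholds under an alternative, 42 came to pass them, 7 came to miss them and 36 changed sign, all of these for values that did not pass. Ranges here come from leaving out replicate numbers 1 to 6 in turn. For RIS against growing, *NCL* was 0.0241 on replicate numbers 1 to 4 and -0.0966 to 0.0743 over that range, *FBL* was 0.0267 with voom and 0.0178 on numbers 1 to 4, and *POLR1A* was -0.018 with upper quartile, -0.26 with voom, -0.11 without the departing pair, -0.0247 on numbers 1 to 4 and -0.12 to 0.11 over the range. For shHMGA1 against growing, *NPM1* was -0.17 on numbers 1 to 4 and -0.10 to 0.387 over the range, *FBL* -0.0077 without the departing pair, -0.0044 on numbers 1 to 4 and -0.0234 to 0.088 over the range, and *NOP56* 0.11 with voom, 0.092 without the departing pair and -0.0746 to 0.0893 over the range. For RIS+shHMGA1 against RIS, *DKC1* was -0.0071 on the contrast's groups, -0.0704 without the departing pair and -0.0506 to 0.0783 over the range. In the interaction, *MYC* was -0.12 with voom and -0.0778 without the departing pair, *NOP58* -0.0831 and -0.13 in these and -0.0741 to 0.164 over the range, *DKC1* -0.0189 without the departing pair, *FBL* -0.17 to 0.0116 over the range, and *POLR1B* 0.11 on numbers 1 to 4.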
